A study of Rattus norvegicus with 4 samples.

Results

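The comparison described here set the culture given the highest dose of hydrogen peroxide, 0.009%, against the untreated control culture, 2 of the 4 cultures measured. NRK-52E is an established epithelial cell line from rat kidney tubules. The cells were grown to confluence in DMEM with serum, held for 1 h in DMEM with 0% (control) or 0.009% H2O2, washed with PBS and kept for 12 h in DMEM without serum, so that the control had been through the same change of medium and loss of serum. The other cultures, at 0.003% and 0.006%, were treated alike, and their values are given beside those at 0.009%, with a direct comparison between doses at the end. Each dose was 1 culture on 1 one-colour array, so nothing was replicated, there are no p-values, and every difference is between these cultures. The series asks which molecules from dying cells make their neighbours divide.

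Hydrogen peroxide oxidises cysteine residues and metal centres and damages protein, lipid and DNA. Cells answer it through several known routes: HSF1 raises chaperones when unfolded protein accumulates, NRF2 raises enzymes of glutathione and thioredoxin metabolism, phosphorylation of eIF2alpha raises ATF4 and its targets, p53 answers DNA damage, and the stress-activated MAP kinases raise AP-1 and other early transcription factors. Injured tubule cells are also known to secrete growth factors, among them ligands of the EGF receptor.

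Each of the arrays held 43379 noncontrol spots, with 53.4% of probes well above background in the control and 54.9% at 0.009%, and no spot was saturated. A level below is a relative signal, the probe's signal divided by the 75th percentile of its array, which was 180 in the control and 121 at 0.009%. It is compared between arrays for 1 gene and not between genes. A difference is the log2 of the level at 0.009% over that in the control, given with the error of the spots, which covers the measurement of a spot only. That error had a median of 0.21 and was at most 0.45 where both arrays were well above background. Repeated spots of 1 probe had a median SD of 0.079 (log2) in the control and 0.078 at 0.009%. Where 1 side was not well above background, the fold is a bound, written "at least".

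The label was checked against marker genes. Of 10 markers of tubule epithelium, Krt8, Krt18, Krt19 and Cdh16 were well above background in the control and Cldn4 in addition at 0.009%, while Cdh1, Epcam, Pax8 and Cldn7 were among those well above background on neither array. Their summed level was 59.9 in the control and 38.9 at 0.009%. Such a sum compares the same markers between arrays and is not set against that of another cell type. Of 8 fibroblast markers on the array, Col1a2, Col3a1, Fn1, Pdgfrb and Vim were well above background on both arrays, with a summed level of 108 and 70.9. Of 3 endothelial markers only Kdr was detected, at 0.107 and 0.322, and of 6 leukocyte markers Adgre1, Aif1 and Cd68, with summed levels of 2.45 and 4.39.

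Of 21465 features (named genes, or targets without a gene name) that were well above background on at least 1 of the arrays, 3538 (16.5%) lay above the control by 2-fold or more at 0.009% and 1588 (7.4%) below it. Of the higher, 1405 were bounds, and of the lower 192. The lowest signal well above background was 10.2 in the control and 10.1 at 0.009%, which scaling turned into levels of 0.0568 and 0.0836. A spot at this limit on both arrays therefore counts as higher at 0.009%, which favours higher over lower bounds. Another 531 features, dim on 1 array, gave no fold and count as neither. Among the 5835 named genes, 806 (13.8%) were higher and 301 (5.16%) lower, and these shares are the background for every count of a gene list below. The larger steps were nearly all upward: at 4-fold or more, 180 named genes lay above the control and 12 below it, at 8-fold or more 72 and 0, and at 16-fold or more 29 and 0. At the edge of the 2-fold rule, Ficd was at 1.00 and inside, and Or51a25 at 0.999 and outside. Below the control, Scfd2 was at -1.0 and inside, and Dnajc12 at -0.998 and outside.

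The balance of higher and lower features rested on the scaling. With the 75th percentile 69.0% of the features past 2-fold were higher, with quantile normalization 47.7%, with array median scaling 21.0%, with normexp background correction 54.3%, and with scaling to 8 spike-in control probes 4.49%. The deposited value table is scaled by the array median and gave 21.0% too. The spike-in probes were 1.52-fold brighter at 0.009% than in the control while the 75th percentile was 1.49-fold lower, so a gene measured between 0 and 1.18 above the control lies below it on the spike-in scale. The amounts of RNA and of spike-in added are not known here, and in such bulk RNA fewer cells and less RNA per cell cannot be told apart. All values below are relative to the 75th percentile, and spike-in values are given beside list counts and beside genes past 2-fold whose sign turns. The background for list counts with spike-in scaling is 149 higher and 3281 lower of 5835 named genes. With array median scaling it is 304 and 1273, and where both arrays had to be above background 487 and 277 of 5135. Orders over the doses depend on the scaling too. The median difference of 0.009% against 0.006% was 0.12 with the 75th percentile and -0.54 with spike-in scaling, so small steps between doses can turn. Under all 5 settings together, 135 named genes lay above the control by 2-fold or more and 144 below it.

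**Figure D1:**
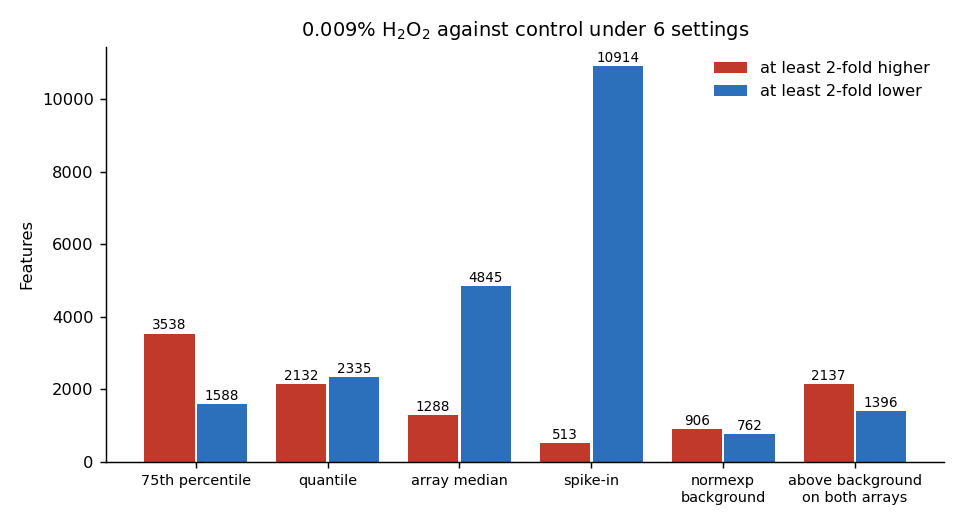
Number of features at least 2-fold higher (red) and at least 2-fold lower (blue) at 0.009% H2O2 than in the control under 6 settings of scaling, background correction or filter. The higher features number 3538 and the lower 1588 with the 75th percentile, while spike-in scaling gives 513 and 10914.

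**Figure D2:**
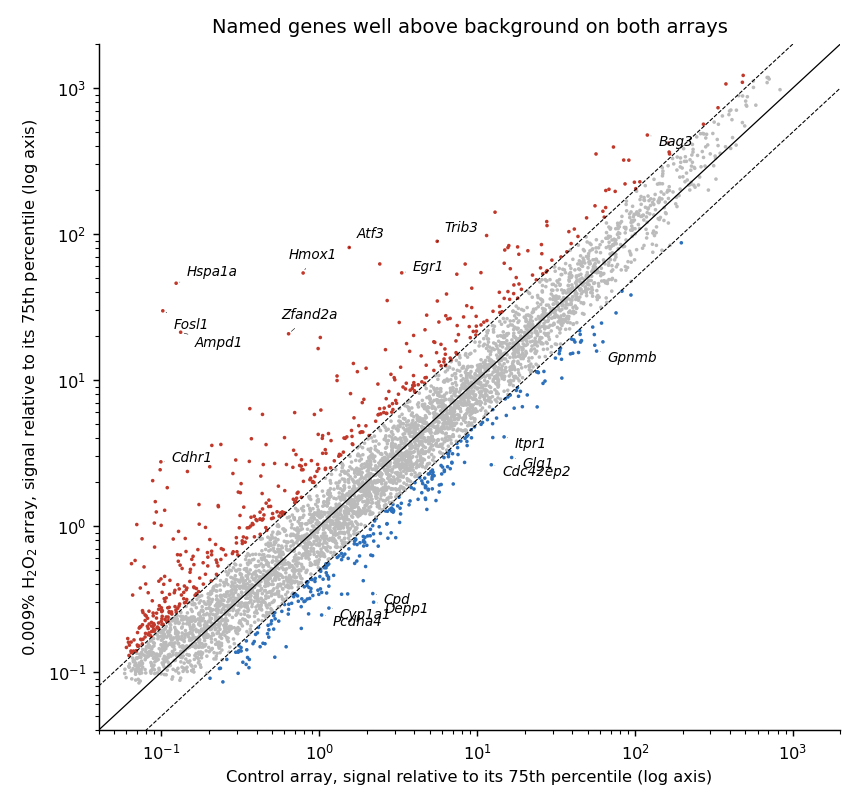
Signal of each named gene well above background on both arrays, relative to the array's 75th percentile, in the control (x axis) and at 0.009% H2O2 (y axis), both axes logarithmic. Red points are at least 2-fold higher, blue at least 2-fold lower, grey neither, the solid line is equality and the dashed lines 2-fold. The points far from the line, such as Hspa1a, Fosl1 and Ampd1, lie above it.

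The gene furthest above the control was Hspa1a, which encodes the inducible HSP70 chaperone and cannot be separated from its near-identical copy Hspa1b by hybridisation. Its level was 0.124 in the control, 5.38 at 0.003%, 19.6 at 0.006% and 46.0 at 0.009%. The difference at 0.009% was 8.54 ± 0.08, or 371-fold, and its other probe gave 7.65. The level was higher on each array than on the array of the dose below.

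Next in rank were Fosl1, Ampd1 and Hmox1. Fosl1, the AP-1 subunit FRA-1, was at 0.102 in the control and at 38.4, 44.7 and 29.8 over the doses, a difference of 8.19 ± 0.27 at 0.009%, which was highest at 0.006%. Ampd1, the muscle form of AMP deaminase, was at 0.132 and then 7.02, 14.0 and 21.2, a difference of 7.33 ± 0.26. Hmox1, haem oxygenase 1, was at 0.79 and then 37.3, 55.8 and 54.0, a difference of 6.10 ± 0.07. The control levels of Hspa1a, Fosl1 and Ampd1 are close to background, and with normexp the differences were 5.89 for Fosl1, 5.13 for Ampd1 and 5.37 for Hmox1, against 6.51 for Hspa1a.

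Atf3, a stress-induced factor of the ATF family, went from 1.55 to 80.8 (5.71 ± 0.20), with 44.2 and 65.9 at the lower doses. Zfand2a, which binds the proteasome and is induced by arsenite and heat, went from 0.639 to 20.7 (5.02 ± 0.21). Ppp1r15a (GADD34), the phosphatase subunit that reverses eIF2alpha phosphorylation, went from 2.41 to 62.3 (4.69 ± 0.20). All 3 were above the control by over 4 under normexp, and by over 3 under spike-in scaling.

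Several of the 20 highest genes are best known from other tissues and were dim in the control. Cdhr1, a photoreceptor cadherin, was at 0.0992 in the control and 2.75 at 0.009% (4.79 ± 0.27), Foxj1, the master factor of motile cilia, at 0.0981 and 2.43 (4.63 ± 0.28), and Tac3, a neuropeptide precursor, at 0.088 and 2.04 (4.54 ± 0.33). Hamp, the iron hormone hepcidin, went from 0.0914 to 1.47 (4.01 ± 0.29), Reep2, which shapes the endoplasmic reticulum (ER), from 0.109 to 1.83, and Gsg1 from 0.146 to 2.36. For all 6, the levels at 0.003% and 0.006% lay between the control and 0.009%. The same order held for 4 of the largest bounds. The neuropeptide gene Gal was not well above background in the control and was at 1.00, 1.97 and 3.62 over the doses, at least 63.7-fold higher at 0.009%. Klre1, a natural killer cell receptor, was at least 45.6-fold, Pyy, a gut hormone, at least 37.6-fold, and Ldhc, the testis form of lactate dehydrogenase, at least 27.3-fold higher.

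Dim genes as a whole lay higher on the 0.009% array. When the features measured on both arrays were split into 5 equal classes by mean signal, the median difference was 0.40 in the dimmest class, 0.08, -0.09 and -0.11 in the next, and 0.15 in the brightest. At least 2-fold higher were 15.2% of the dimmest class and 9.11% of the brightest. With normexp, which adds an offset to every signal, Cdhr1 was at 2.77, Foxj1 at 2.69, Tac3 at 2.27, Hamp at 2.05 and Gal at 3.17, so they stayed past 2-fold with smaller values. The part that background played in these genes was not tested.

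**Figure D3:**
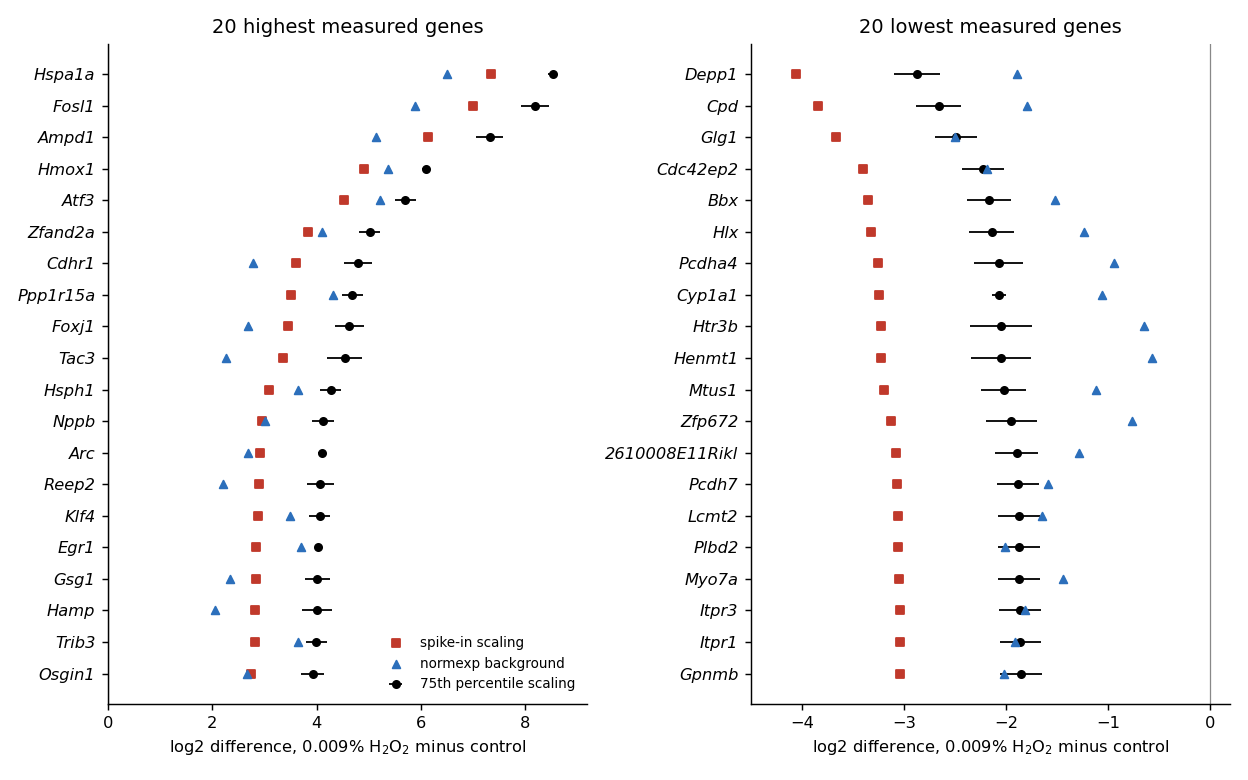
Log2 difference between 0.009% H2O2 and control for the 20 highest (left) and 20 lowest (right) named genes measured on both arrays. Black points are values scaled to the 75th percentile with spot error bars, red squares are spike-in scaled values, and blue triangles are values after normexp. Under the 3 settings each of the 20 highest lies above 2, and each of the 20 lowest at or below the -0.57 of Henmt1 after normexp.

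Chaperones of the heat shock response bind unfolded protein or help HSP70 and HSP90 to do so. Of 33 compared, 15 (45.5%) were at least 2-fold higher and none was 2-fold lower, with a median of 0.94 (-0.24 with spike-in scaling). The HSP110 chaperone Hsph1, which exchanges the nucleotide of HSP70, was at 1.01 in the control and at 6.06, 14.0 and 19.5 over the doses (4.27 ± 0.21). The small heat shock protein Hspb8 was at 1.02 and then 6.49, 7.97 and 6.22, and its partner Bag3 at 120 and then 277, 394 and 476. Bag3 and Hsph1 were highest at 0.009%, Hspb8 at 0.006%.

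The mitochondrial chaperonin pair followed the same direction. Hspe1 (HSP10) went from 84.7 to 321, a difference of 1.92 ± 0.20, and Hspd1 (HSP60) was at 1.60. Of the cytosolic machinery, the HSP90 genes Hsp90aa1 and Hsp90ab1 were at 1.81 and 1.35, the HSP40 Dnaja1 at 1.39, the HSP90 co-chaperone Stip1 at 1.13 (-0.05 with spike-in scaling) and the small heat shock protein Hspb1 at 1.19. Subunits of the cytosolic chaperonin had smaller differences. Tcp1 was at 1.36, and Cct2, Cct3, Cct4, Cct5 and Cct6a at 0.65, 0.64, 0.77, 0.65 and 0.78, below the 2-fold rule and negative with spike-in scaling. Past 2-fold under all 5 settings were Hspa1a, Hsph1, Hspb8 and Zfand2a. Hspa13, Hspa14 and Hspb6, at -0.20, -0.35 and -0.26, did not share the direction.

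Promoter windows of the chaperones are shown because these genes were among the highest and HSF1 is known to bind repeats of GAA. The windows come from RefSeq on the GRCr8 assembly and run from 250 bases before to 50 after the annotated start. The heat shock element searched, on both strands, was 3 inverted repeats of GAA, each 2 bases apart, found in 0.794% of 27457 genes with a window, in 2 of the 14 matched among the 20 highest measured genes (Hsph1 and Osgin1) and in 7 of the 28 matched chaperones (Cct4, Dnaja1, Hspa8, Hspd1, Hspe1, Hsph1 and Serpinh1). Capitals mark the matches. That of Hsph1 (chr12:10427118-10427417, plus strand) begins 36 bases before the start, and the overlapping pair of Hspe1 (chr9:64084077-64084376, plus strand) 65 and 60 bases before it. The sequences printed were chosen after the search.
Hsph1: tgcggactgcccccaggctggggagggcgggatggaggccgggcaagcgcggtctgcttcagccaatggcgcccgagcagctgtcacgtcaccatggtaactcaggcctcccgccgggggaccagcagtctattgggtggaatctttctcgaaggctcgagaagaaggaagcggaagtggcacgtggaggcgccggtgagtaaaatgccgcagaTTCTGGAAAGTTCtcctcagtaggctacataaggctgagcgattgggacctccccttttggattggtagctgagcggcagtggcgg
Hspe1: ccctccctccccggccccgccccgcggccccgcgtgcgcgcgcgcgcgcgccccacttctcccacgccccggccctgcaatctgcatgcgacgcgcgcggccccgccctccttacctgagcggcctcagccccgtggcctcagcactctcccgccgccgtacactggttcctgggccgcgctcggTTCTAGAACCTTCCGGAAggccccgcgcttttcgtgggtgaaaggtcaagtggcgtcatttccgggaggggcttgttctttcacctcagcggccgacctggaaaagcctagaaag
A match is a description of the letters and not a bound site. The chaperones holding it were spread over the range, from Hsph1 at 4.27 through Hspd1 at 1.60 and Cct4 at 0.77 to Serpinh1 at 0.13, and Hspa8 was at 0.94, the last 3 negative with spike-in scaling.

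Ubiquitin and the proteasome remove what chaperones cannot refold. Of 47 genes compared, 4 (8.51%) were at least 2-fold higher and none was 2-fold lower, below the background of 13.8%, with a median of 0.29 (-0.89 with spike-in scaling). Among the 4, the stress-inducible polyubiquitin gene Ubb was at 376 in the control and at 637, 851 and 1065 over the doses (1.5 ± 0.20). They also included the conjugating enzyme Ube2d3 at 1.22 and the proteasome lid subunit Psmd12 at 1.03, the latter at -0.15 with spike-in scaling. The activating enzyme Uba1, which starts the cascade, was at -0.89. The other proteasome subunits ran from Psmb8 at -0.29 to Psmb4 at 0.73.

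AP-1 is a dimer of FOS, JUN, ATF or MAF proteins that binds TGANTCA. Of 13 genes compared, 7 (53.8%) were at least 2-fold higher and none was 2-fold lower, with a median of 1.16 that was -0.02 with spike-in scaling. Besides Fosl1 and Atf3, Jun was at 10.6 in the control and at 26.0, 38.6 and 54.3 over the doses (2.36 ± 0.06), and Fos at 3.96 and then 9.68, 14.8 and 20.2 (2.35 ± 0.20). Both were higher on each array than on that of the dose below. On the spike-in scale, however, both were lower on the array at 0.009% than on that at 0.006%. The small MAF proteins Mafk and Mafg, partners of NRF2 as well, were at 2.12 and 1.41. Not all subunits shared this: Fosl2 was at 0.00 and Junb at -0.30.

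Early growth response and KLF genes are normally switched on within minutes and off again within hours. At 12 h after exposure, 16 of 25 (64.0%) were at least 2-fold higher and none was 2-fold lower, with a median of 1.2 (0.02 with spike-in scaling). Egr1 was at 3.33 in the control and at 13.6, 30.01 and 54.2 over the doses (4.03 ± 0.06), and Ier2 at 13.0 and then 77.3, 113 and 141 (3.44 ± 0.20). Both were higher on each array than on that of the dose below. On the spike-in scale this held for Egr1, while Ier2 was lower at 0.009% than at 0.006%. Klf4 was at 0.983 and then 20.4, 18.5 and 16.4, and Myc, the growth factor-induced driver of ribosome production and cell cycle entry, at 1.64 and then 10.9, 13.7 and 13.0 (2.98 ± 0.07), so these lay highest at the lower doses. Arc was at 4.09, the orphan receptor Nr4a3 at 3.87 and Klf6 at 3.09. Klf5, Klf15 and the clock gene Per1, at -0.53, -0.80 and -0.70, lay below the control.

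Inhibitors that MAP kinases induce against themselves were among the higher genes. Of 12 compared, 6 were at least 2-fold higher and 1 lower, with a median of 0.98 (-0.20 with spike-in scaling). The ERK phosphatase Dusp5 was at 8.39 in the control and at 45.5, 58.9 and 62.2 over the doses (2.89 ± 0.20), and Errfi1 (MIG6), which binds and inhibits the EGF receptor, at 15.0 and then 51.6, 70.2 and 77.6 (2.38 ± 0.20). Dusp1 and Dusp6 were at 1.44 and 1.23 and Spred1, an inhibitor of RAS signalling, at 1.57. Dusp14 was the exception, at 2.10, 2.17, 1.28 and 0.857 over the arrays (-1.29 ± 0.21).

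**Figure D4:**
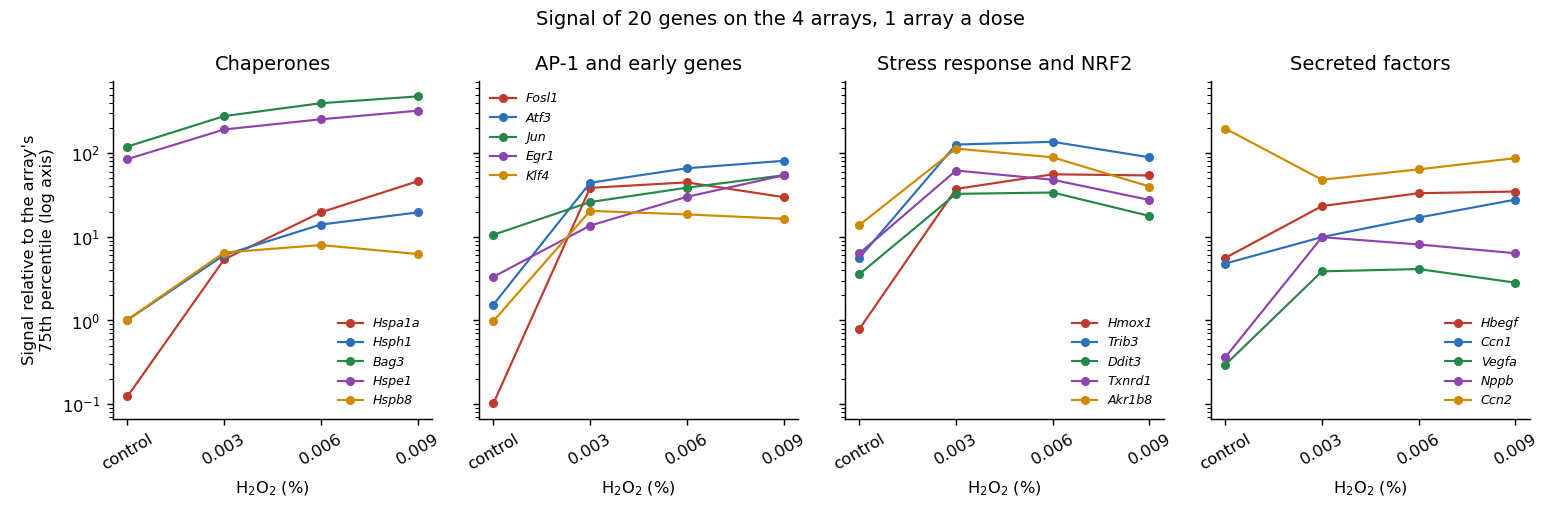
Signal of 20 genes, relative to the array's 75th percentile (log axis), on the control array and the arrays at 0.003, 0.006 and 0.009% H2O2, 1 array a dose, lines joining the points of a gene. Hspa1a, Hsph1, Bag3, Jun, Egr1 and Ccn1 are highest at 0.009%, while Trib3, Ddit3, Txnrd1, Akr1b8 and Nppb are highest at 0.003% or 0.006%. On the spike-in scale, not drawn, Hsph1, Bag3 and Jun are lower at 0.009% than at 0.006%.

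In the integrated stress response, phosphorylated eIF2alpha lowers general translation and favours Atf4, whose targets import and make amino acids. Of 30 genes compared, 15 were at least 2-fold higher and none was 2-fold lower, with a median of 0.95 (-0.23 with spike-in scaling). Atf4 itself was at 56.6 in the control and at 316, 366 and 353 over the doses (2.64 ± 0.20), and Atf5 was at 2.43. Of the targets, the pseudokinase Trib3 was at 5.58 and then 126, 136 and 89.0 (4.0 ± 0.20), Ddit3 (CHOP) at 3.57 and then 32.6, 33.8 and 17.7 (2.31 ± 0.20). At 0.009% both were nearer to the control than at 0.006%.

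Both chains of a large neutral amino acid exchanger were higher. Slc3a2, the heavy chain, was at 6.39 and then 57.5, 62.6 and 38.8, and Slc7a5, the light chain, was not well above background in the control and at least 8.53-fold higher. Asparagine synthetase (Asns) was at 1.08, asparaginyl-tRNA synthetase (Nars1) at 1.44, and the serine synthesis enzymes Phgdh and Psph at 0.36 and 0.62, all but Nars1 negative with spike-in scaling. The kinases that phosphorylate eIF2alpha were near or below the control, Eif2ak3 (PERK) at 0.18 and Eif2ak1 (HRI) at -0.78.

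The promoter window of Ppp1r15a is shown because it held the cAMP response element TGACGTCA, a palindrome that ATF and CREB dimers bind. It was 1 of 14 matched genes of the 20 highest to do so, against 2.0% of all genes with a window. The window (chr1:105139547-105139846, minus strand) also held TGANTCA, as did those of Hamp and Zfand2a (8.04% of all). Capitals mark the cAMP response element, which begins 66 bases before the start.
Ppp1r15a: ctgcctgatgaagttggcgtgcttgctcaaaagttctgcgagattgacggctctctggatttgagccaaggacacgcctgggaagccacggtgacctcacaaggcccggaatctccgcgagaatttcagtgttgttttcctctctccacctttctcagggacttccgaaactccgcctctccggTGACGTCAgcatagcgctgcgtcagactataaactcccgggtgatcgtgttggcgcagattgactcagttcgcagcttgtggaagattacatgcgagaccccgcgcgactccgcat
No window of the 14 held the C/EBP-ATF composite TTGCATCA, present in 0.827% of all. The antioxidant response element core TGACNNNGC, a short and frequent match, was in 5 of the 14 (Ampd1, Cdhr1, Fosl1, Ppp1r15a and Zfand2a) against 13.1% of all, and the CArG box of serum response factor in that of Egr1 against 1.77%. Of 14 matched genes among the 20 lowest, Gpnmb held TGANTCA and none held any other of these motifs.

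ER chaperones and the factors that extract misfolded proteins from the ER were split. Of 23 compared, 4 (17.4%) were at least 2-fold higher and none was 2-fold lower, with a median of 0.21 (-0.97 with spike-in scaling and -0.35 with array median scaling). Dnajb9, an HSP40 of the ER that keeps IRE1 inactive, was at 2.62 in the control and at 19.1, 22.9 and 16.1 over the doses (2.62 ± 0.20), and Herpud1, which serves degradation, at 16.2 and then 89.7, 99.6 and 57.8 (1.83 ± 0.20). The HSP70 of the ER, Hspa5 (BiP), was at 162 and then 452, 510 and 419, and Hsp90b1 was at 1.00 (-0.18 with spike-in scaling), with 2.51 at its other probe. For these genes the level at 0.009% was below that at 0.006%. The lectin chaperone Calr was at -0.43, the isomerase P4hb at -0.30 and Os9 at -0.59.

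Targets of NRF2, which binds the antioxidant response element with small MAF proteins, went in both directions. Of 37 compared, 7 (18.9%) were at least 2-fold higher and 2 lower, with a median of 0.22 (-0.96 with spike-in scaling and -0.35 with array median scaling). Osgin1 was at 0.238 in the control and at 4.60, 5.38 and 3.62 over the doses (3.93 ± 0.22), Txnrd1, thioredoxin reductase, at 6.32 and then 61.9, 48.0 and 27.5 (2.12 ± 0.20), and the aldo-keto reductase Akr1b8 at 13.8 and then 113, 89.0 and 39.9 (1.53 ± 0.20). The latter pair was highest at 0.003% and lower on each array above it, unlike Hmox1. Ptgr1 and Akr7a3, not well above background in the control, were higher by at least 3.65-fold and 3.29-fold.

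Other members lay on both sides of the control. The ferritin chains Ftl1 and Fth1 were at 1.33 and 0.51, the rate-limiting subunit of glutathione synthesis Gclc at 0.94 and Gsta1 and Gsta3 at 0.86 each, negative with spike-in scaling but for Ftl1. Nqo1, a quinone reductase, was at 0.746 in the control and at 1.24, 1.06 and 0.65, a difference of -0.20 ± 0.21 that is within its spot error. Keap1, which holds NRF2 inactive, was at -0.67, and the export pumps Abcc1 and Abcc4 were at -1.34 and -1.47, although another probe of Abcc4 gave 1.18. Of 20 enzymes that remove peroxide and superoxide none was 2-fold higher or lower. They ran from 0.89 for Prdx6 to -0.48 for Txnrd2, with Cat at 0.33 and Gpx1 at 0.48, values that spike-in scaling makes negative throughout.

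Among 13 genes of metal and haem handling, 3 (23.1%) were at least 2-fold higher and 1 lower, with a median of -0.14, and with spike-in scaling 1 and 8 (median -1.32). The zinc exporter Slc30a1 was at 0.434 in the control and at 2.16, 2.44 and 1.67 over the doses (1.94 ± 0.21), and metallothionein Mt1 was at 1.17 (-0.01 with spike-in scaling). The iron importer Slc11a2 (DMT1) was at 8.32 and then 3.42, 2.61 and 2.73 (-1.61 ± 0.20), and the iron-sensing aconitase Aco1 was at -0.96. Hamp, described above, was the third of the higher genes.

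Of 18 p53 targets, 8 (44.4%) were at least 2-fold higher and none was 2-fold lower, with a median of 0.76 (-0.42 with spike-in scaling). Cdkn1a (p21), which inhibits cyclin-dependent kinases, was at 2.69 in the control and at 45.7, 45.9 and 35.0 over the doses (3.70 ± 0.06), with 2.80 at its other probe. The kinase Plk2 was at 0.436 and then 4.55, 6.25 and 5.81 (3.73 ± 0.21). All 3 Gadd45 genes, which bind stress-activated kinase cascades, were higher: Gadd45a at 2.95, Gadd45g at 2.04 and Gadd45b at 1.91. These genes also answer other stress factors, and the death-related targets were near the control, with Bax at 0.04, Bbc3 (PUMA) at 0.64 and Fas at -0.50. Bax and Bbc3 were negative with spike-in scaling.

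Cell cycle genes were compared as 3 lists. Of 19 genes of mitosis only Pttg1 (securin) was past 2-fold, at 33.9 in the control and at 31.1, 47.2 and 69.6 over the doses (1.04 ± 0.20, but -0.15 with spike-in scaling). The list had a median of 0.32 (-0.86 with spike-in scaling). Of 33 genes of DNA replication and repair, 1 was higher by a bound (Brca2, at least 2.60-fold, with another probe at -1.46) and 3 were lower, among them the primase-polymerase subunit Pola2 at -1.2. With spike-in scaling none was higher and 25 were lower. Of 15 G1 drivers only Myc was past 2-fold, and with spike-in scaling 11 others were lower. The D cyclins that carry growth signals into the cycle were at -0.48 for Ccnd1, -0.98 for Ccnd2 and -0.83 for Ccnd3.

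Of 27 nucleolar factors compared, 12 (44.4%) were at least 2-fold higher and none was 2-fold lower, with a median of 0.95 (-0.23 with spike-in scaling). Nop56 and Nop58, core proteins of the box C/D particles that methylate ribosomal RNA, were at 5.72 in the control and 28.5, 30.5 and 24.9 over the doses (2.12 ± 0.20), and at 18.4 and then 94.0, 99.9 and 72.6 (1.98 ± 0.20). Nucleostemin (Gnl3) was at 27.6 and then 128, 142 and 122, and the nucleolar phosphoprotein Nolc1 at 14.8 and then 98.4, 97.9 and 63.0. All 4 were above the control on every treated array and lower at 0.009% than at 0.006%. Npm1 and Ncl, the abundant nucleolar proteins, were at 1.15 and 0.96 (both negative with spike-in scaling), and of the RNA polymerase I subunits Polr1b was at 1.58 and Polr1a at 0.43. None of the 12 stayed past 2-fold with spike-in scaling, where Gnl3 was at 0.96.

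Of 65 cytosolic ribosomal protein genes only Rps15a at 1.13 and Rpl35a at 1.02 were past 2-fold (both negative with spike-in scaling), but all 65 were above 0, from Rplp0 at 0.03 to Rps15a, with a median of 0.71. The whole list lay in a narrow range. It was at 0.15 with quantile normalization or array median scaling and at -0.47 with spike-in scaling, and processed copies of these genes may share signal. Translation factors had 7 of 33 (21.2%) at least 2-fold higher and 1 lower, with a median of 0.47 (-0.71 with spike-in scaling). The cap-binding protein Eif4e was at 9.24 in the control and at 52.9, 52.5 and 42.5 over the doses (2.20 ± 0.20), with 0.70 at its other probe, and Eif2s2, the beta subunit of eIF2, was at 1.57. Eif4ebp2, which sequesters Eif4e, was the lower one at -1.17. Of 26 splicing factors 5 (19.2%) were higher and none lower, all 5 between 1.06 and 1.25, with Srsf2 at 1.25 and the kinase Clk4 at 1.15. With spike-in scaling Srsf2 was at 0.07 and the other four, Clk4, Tra2b, Celf1 and Srsf5, between -0.03 and -0.12. A probe of Celf1 and a probe of Srsf5 lay below the control.

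The question of the series concerns what the cells secrete. Of 47 secreted growth factors compared, 16 (34.0%) were at least 2-fold higher, 6 of them by bounds, and 3 lower, with a median of 0.34. With spike-in scaling 7 were higher and 20 lower (median -0.96), and with array median scaling 10 and 11 (median -0.23). Where both arrays were above background, 10 were higher and 2 lower, with a median of 0.15. Of the EGF receptor ligands, Hbegf was at 5.59 in the control and at 23.3, 33.2 and 34.7 over the doses (2.63 ± 0.20), amphiregulin (Areg) at 1.66, epiregulin (Ereg) at least 2.26-fold higher (no fold with spike-in scaling), and Tgfa lower, at -1.41. The ligands of 1 receptor thus differed in direction. Nppb, B-type natriuretic peptide, was at 0.363 and then 9.90, 8.09 and 6.36 (4.13 ± 0.21), and Vegfa, the angiogenic factor, at 0.296 and then 3.86, 4.12 and 2.83 (3.26 ± 0.07).

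The matricellular CCN genes, targets of YAP, differed in direction too. Ccn1 was at 4.79 in the control and at 9.92, 17.0 and 27.8 over the doses (2.54 ± 0.20), whereas Ccn2 was at 196 and then 48.0, 63.9 and 87.0 (-1.18 ± 0.06). Both were higher at 0.009% than at 0.003%, although Ccn2 was not so on the spike-in scale. At 0.009% they stood on opposite sides of the control under all 5 settings. Gdf15, a stress cytokine, was at least 16.2-fold higher, Fgf21 at least 5.68-fold and adrenomedullin (Adm) at least 4.94-fold. Igf2 and endothelin 1 (Edn1) were at 1.91 and 1.77, while Tgfb1 and Tgfb3 were at -0.67 and -0.94. Of the 18 targets of YAP and TGF-beta signalling, 3 (16.7%) were higher and 3 lower (with spike-in scaling 1 and 12), the latter being Ccn2 and the HLH inhibitors Id1, at 34.4 and then 14.1, 9.35 and 10.3, and Id3 at -1.15. Id4 was at 1.91.

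Of 29 cytokine, chemokine and interferon response genes, 4 (13.8%) were at least 2-fold higher and 1 lower, a share at the background, and with spike-in scaling 2 and 22 (median -1.44). Cxcl10 was at 0.319 in the control and at 3.52, 3.88 and 1.95 over the doses, and Cxcl1 at 1.58 and then 14.7, 8.90 and 8.06. Irf9 and Stat2, which carry the interferon signal, were at -0.96 and -0.66. Of prostaglandin genes, Ptgs2, the inducible cyclooxygenase, was not well above background in the control and at 0.924, 1.43 and 1.24 over the doses, at least 21.8-fold higher. The prostaglandin E2 receptor Ptger4 was detected only in the control, and Ptgs1 was at -0.59.

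In the BCL2 family of 18, 3 (16.7%) were at least 2-fold lower and 1 (5.56%) higher, and with spike-in scaling 11 and 0. Bnip3 at -1.25, Bmf at -1.19 and the anti-apoptotic Bcl2l1 (BCL-XL) at -1.08 were lower, although a probe of Bcl2l1 gave 0.20, and Hrk was higher by a bound. Mcl1, a short-lived protector, was at 10.3 in the control and at 28.8, 22.7 and 17.1 over the doses (0.73 ± 0.20, -0.45 with spike-in scaling). Among 27 caspases and death receptor genes 4 (14.8%) were higher and 1 (3.70%) lower, and with spike-in scaling 0 and 18. Cflar (FLIP), which blocks the initiator caspase of death receptors, was at 0.75 and then 5.02, 4.39 and 2.60 (1.79 ± 0.21), the TWEAK receptor Tnfrsf12a was at 1.45, Casp4 at 1.15 (-0.03 with spike-in scaling) and Faslg at least 4.23-fold higher. Casp9, the initiator of the mitochondrial route, was at -1.45, and the executioner Casp6 was at 0.05.

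Of 11 genes of purine metabolism, 2 were higher and 2 lower, and with spike-in scaling 1 and 6. Ampd1 was furthest above the control, with the adenosine receptor Adora2b next at 1.18 (-0.0035 with spike-in scaling), while the broadly expressed AMP deaminase Ampd3 was at -1.02 and xanthine oxidoreductase Xdh at -1.07. Of 22 genes of cytochromes P450 and the aryl hydrocarbon receptor, 3 (13.6%) were higher and 2 lower (with spike-in scaling 0 and 13), the latter being Cyp1a1 and the acetyltransferase Nat1 at -1.03. Of 11 FOXO targets, 1 was higher, G6pc1 by a bound, and 2 were lower, Depp1 and Bnip3 (with spike-in scaling 1 and 8), while Igfbp1 and Fbxo32 were at 0.04 each.

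Junction and keratin genes went both ways, with 5 of 24 (20.8%) at least 2-fold higher and 3 lower, and with spike-in scaling 2 and 13. Besides Cdhr1, Krt18 and Krt19, the higher genes included the connexin Gjb5, by a bound (no fold with spike-in scaling). F11r, a tight junction adhesion molecule, was at -1.09, Jup, the plaque protein plakoglobin, at -0.78, and the lower ones besides F11r were the protocadherins described below.

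**Figure D5:**
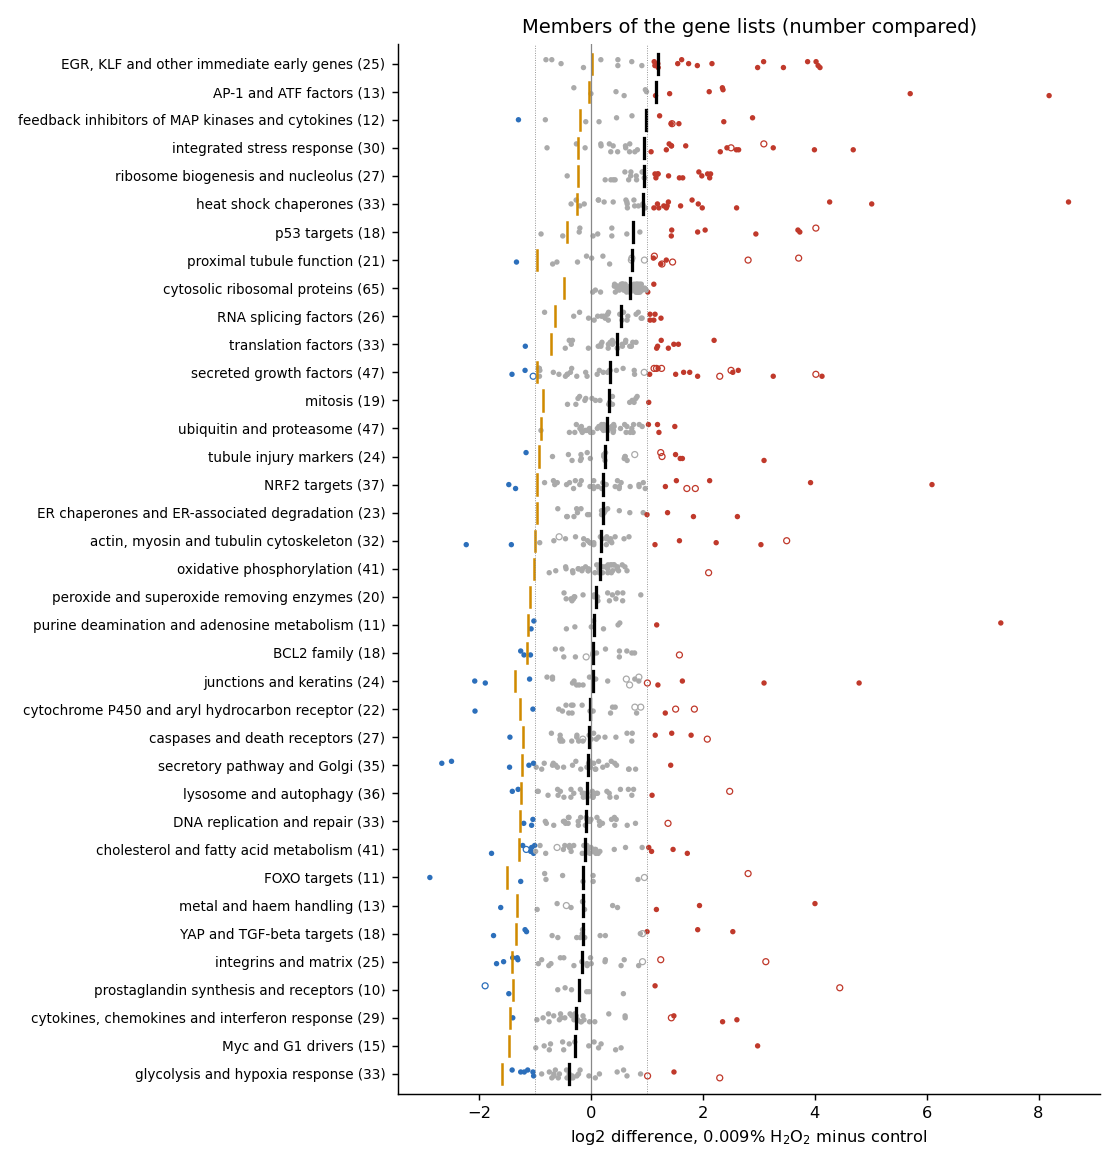
Log2 difference between 0.009% H2O2 and control for members of 37 gene lists, with the number compared in brackets. Compared members that gave no fold are not drawn. Red points are at least 2-fold higher, blue at least 2-fold lower, grey neither, open points are bounds, black bars are the list medians and orange bars the medians with spike-in scaling. Early genes, AP-1 factors, feedback inhibitors, integrated stress response genes, nucleolar factors and chaperones have the highest medians, and glycolysis and hypoxia genes the lowest at -0.39.

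Of 33 genes of glycolysis and the hypoxia response, 3 (9.09%) were at least 2-fold higher and 6 (18.2%) lower, with a median of -0.39. With spike-in scaling 1 was higher and 26 lower (median -1.59), and with array median scaling 1 and 14 (median -0.95). Lactate dehydrogenase Ldha was at 33.1 in the control and at 25.3, 17.1 and 15.2 over the doses (-1.13 ± 0.06), the phosphofructokinase Pfkl was at -1.19, the triose isomerase Tpi1 at -1.02 and Eno2 at -1.03. Gapdh, of the same pathway and often used as a reference, was at 157, 167, 146 and 138 (-0.19 ± 0.06). The hexokinase Hk2 went the other way, at 1.49. Oxidative phosphorylation genes kept closer to 0: of 41 only Uqcrq was past 2-fold, by a bound, and the median was 0.17 (-1.01 with spike-in scaling). The subunits Atp5f1a, Ndufs1 and Sdha were at -0.74, -0.63 and -0.45.

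Of 41 genes of cholesterol and fatty acid metabolism, 4 (9.76%) were higher and 7 (17.1%) lower, with a median of -0.10. With spike-in scaling none was higher and 34 were lower (median -1.28). In cholesterol synthesis Idi1 was at 9.85 in the control and at 24.4, 27.0 and 27.3 over the doses (1.47 ± 0.20), and Msmo1 at 1.09 (-0.10 with spike-in scaling), while squalene epoxidase Sqle was at -1.0 and squalene synthase Fdft1 at -1.06. Insig1 and Insig2, which retain the sterol sensor in the ER, were at 1.04 (-0.15 with spike-in scaling) and -1.22. The cholesterol exporter Abca1 was at 0.855 and then 0.458, 0.28 and 0.25 (-1.77 ± 0.23), and the carnitine palmitoyltransferases Cpt1a and Cpt2 were at -1.02 and -1.07.

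Genes of the tubule come next. Of 24 injury markers, 6 (25.0%) were at least 2-fold higher and 1 lower, with a median of 0.26 (-0.93 with spike-in scaling). Krt19 was at 0.369 in the control and at 0.309, 0.741 and 1.15 over the doses (1.64 ± 0.21). Krt18 was at 0.0646 and then 0.30, 0.436 and 0.552 (3.1 ± 0.34), with 1.18 at another probe. Their pairing keratin Krt8 was at -0.68, and the cadherin Cdh2, the lower one, at -1.16. The hyaluronan receptor Cd44 was at 1.10 and then 10.8, 5.53 and 3.15. Havcr1 (KIM-1), the best known injury marker, was not well above background in the control and barely so at 0.009%, at 0.0979, at least 1.72-fold higher (no fold with spike-in scaling), and Lcn2 (NGAL) was at -0.40.

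Proximal tubule genes were mostly dim. Of 21 compared, 8 (38.1%) were at least 2-fold higher, 5 of them by bounds, and 1 lower, with a median of 0.73 (-0.96 with spike-in scaling). Where both arrays were above background, 3 were higher and the median was 0.015, so the share and the median rest on members that were dim in the control. The dicarboxylate carrier Slc13a3 was at least 13.1-fold and the gluconeogenic enzyme G6pc1 at least 7.02-fold higher, and Hnf4a, a master factor of this cell type, was at 1.25. The water channel Aqp1 was at 1.94 in the control and at 0.45, 0.539 and 0.772 over the doses (-1.33 ± 0.07).

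Of the genes measured on both arrays, Depp1, a FOXO target, was furthest below the control, at 2.21 in the control and at 0.54, 0.354 and 0.301 over the doses (-2.88 ± 0.22). Carboxypeptidase D (Cpd), which trims proteins in the trans-Golgi, was at 2.18 and then 0.539, 0.415 and 0.344 (-2.66 ± 0.22), and the Golgi glycoprotein Glg1 at 16.5 and then 4.50, 3.53 and 2.95 (-2.49 ± 0.20). All 3 were lower on each array than on that of the dose below. Of 35 secretory pathway genes 5 (14.3%) were at least 2-fold lower and 1 higher, and with spike-in scaling 25 and 0. The 5 were Cpd, Glg1, the tether Golgb1 at -1.45, and the glycan-processing enzymes Man1a1 and Mgat1 at -1.11 and -1.02, all 5 past 2-fold under all 5 settings. Sar1a, the GTPase that starts coat formation at the ER, was the higher one at 1.43.

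Of the IP3 receptors, calcium channels of the ER, Itpr1 and Itpr3 were among the 20 lowest, while Itpr2, low in signal on both arrays, was at 0.71 with -2.46 at its other probe. Itpr1 was at 14.8 in the control and at 2.63, 2.99 and 4.08 over the doses (-1.86 ± 0.20, with -0.42 at its other probe), and Itpr3 was at 7.05 and then 1.28, 1.57 and 1.94 (-1.86 ± 0.20). Cdc42ep2, an effector of CDC42, was at 12.3 and then 2.62, 2.30 and 2.63. These 3 were already as low at 0.003%. Gpnmb, a lysosomal glycoprotein, was at 57.1 and then 14.6, 13.7 and 15.8, and the unconventional myosin Myo7a at 3.05 and then 0.716, 0.819 and 0.832, also with little difference between the doses.

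Other genes lay further below the control at each higher dose. Cyp1a1, the classic target of the aryl hydrocarbon receptor, was at 1.15 in the control and at 0.758, 0.315 and 0.274 (-2.07 ± 0.07), the homeobox gene Hlx at 1.51 and then 0.554, 0.467 and 0.343, and the tRNA-modifying enzyme Lcmt2 at 5.48 and then 3.88, 2.11 and 1.49. The zinc finger gene Zfp672 was at 0.769, 0.818, 0.507 and 0.199, so that only the 2 higher doses lay below the control. The protocadherin Pcdh7 was at -1.89 and Pcdha4, whose probe may share sequence with the other genes of its cluster, at -2.07. In the dimmer of these genes normexp gave smaller differences, -0.94 for Pcdha4, -0.65 for Htr3b and -0.57 for Henmt1. Bbx and Mtus1, at -2.17 and -2.02, had other probes at -0.65 and 0.21.

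Matrix and integrin genes had 5 of 25 at least 2-fold lower and 2 higher, both of the latter by bounds, with a median of -0.16. With spike-in scaling 1 was higher and 17 were lower (median -1.41), and where both arrays were above background none was higher and the median was -0.39. Integrin alpha 1 (Itga1), a collagen receptor, was at 45.2 in the control and at 4.35, 8.31 and 18.2 over the doses (-1.31 ± 0.20). The heparan sulfate proteoglycan Agrn was at 55.6 and then 7.90, 11.6 and 17.3, fibronectin (Fn1) at 34.2 and then 9.33, 10.3 and 13.9, and Col5a1 at 19.3 and then 3.63, 5.01 and 6.56. Timp3, a protease inhibitor held in the matrix, was at -1.40. In the first 4 the level was lowest at 0.003% and nearest to the control at 0.009%, an order that spike-in scaling changes for Agrn, Fn1 and Col5a1. The fibroblast markers Col1a2, Col3a1 and Pdgfrb had the same order, at -0.51, -0.70 and -0.92.

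In the cytoskeleton list of 32, 5 (15.6%) were higher and 2 lower, and with spike-in scaling 3 and 16 (median -0.99). The higher were not actin genes. The tubulins Tuba4a, at 1.29 in the control and 4.68, 8.59 and 10.6 over the doses, Tubb6 at 1.15 (-0.03 with spike-in scaling) and Tubb3, at least 11.3-fold higher, and the small GTPases Rnd1 at 2.24 and Rnd3 at 1.58 made up the 5. Nonmuscle myosin Myh10 was at -1.42 and Cdc42ep2 at -2.23. Actb, the other usual reference, was at 226, 214, 246 and 273 (0.28 ± 0.20), negative under spike-in, array median and quantile scaling. Of 36 lysosome and autophagy genes, 2 (5.56%) were higher and 2 lower, and with spike-in scaling 1 and 26 (median -1.25). Prosaposin (Psap) was at -1.40 and the glucosidase Gaa at -1.30, while Gabarapl1, which coats autophagosomes, was at 1.09 (-0.09 with spike-in scaling).

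Set directly against the next lower dose, 0.009% differed little. Against 0.006%, 403 of 20667 features (1.95%) were higher by 2-fold or more and 260 (1.26%) lower, and of the 5744 named genes 64 (1.11%) and 61 (1.06%). The highest named genes were the crystallin Cryba2 at 1.70, the secretoglobin Scgb3a1 at 1.65 and the asialoglycoprotein receptor Asgr2 at 1.65. The lowest were the interferon-induced Rsad2 at -1.77, Epdr1 at -1.56, the glycerol-phosphate acyltransferase Gpam at -1.48 and the adenylate kinase Ak4 at -1.44. With spike-in scaling 41 of the 20667 features were higher and 3244 lower, and with array median scaling 156 and 779.

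Against 0.003% the differences were more. Of 21251 features 2643 (12.4%) were higher by 2-fold or more and 1129 (5.31%) lower, and of 5844 named genes 518 (8.86%) and 325 (5.56%), while spike-in scaling gave 147 and 8668 features. The highest named genes were Lim2 at 3.16, Hspa1a at 3.1 and Scgb3a1 at 3.01, and the lowest the chemokine Ccl20 at -2.86, Gpam at -2.45, the cytochrome Cyp3a9 at -2.24 and Ak4 at -2.12. The chemokine Ccl2 was at -1.93 in this direct comparison and at -0.24 against the control. The 4 arrays lay on 1 slide, ordered by dose from position 1 to 4, and an effect of the position cannot be told apart from that of the dose.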

How the data were processed

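RNA from 1 culture a dose was hybridised to 1 one-colour Agilent rat array each (design 014879), scanned with Feature Extraction 10.7.3.1 under protocol GE1_107_Sep09, per the file headers. The deposited scanner intensity used is the processed signal, background-subtracted per the file headers. The deposited value table holds a ratio, each probe's signal over the array's median, found by setting it against the scanner values (column medians 0.962 for the control and 0.972 for 0.009%). The log2 differences were computed here from the deposited intensities.

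Signals were divided by the 75th percentile of noncontrol spots, outlier spots and control spots were left out, and repeated spots averaged. A feature is a gene named through its RefSeq accession in the GRCr8 gene table (10834 of 41007 probes, 26.4%, for 8963 genes) or an unnamed target, and its brightest probe stands for it. It was compared if well above background on at least 1 of the arrays. For bounds, a dim side took the array's lowest signal well above background, or its own value where that was larger. The 41 gene lists cover 1592 genes, of which 1120 are on the array and 960 were compared at 0.009%. The comparison and the lists were chosen with earlier results of these data known.

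Genes named are the 20 highest and 20 lowest measured, the 10 largest bounds each way, the 6 members of each list furthest from 0, and 10 kept in any case, not all of them described. Other list members, and those of the direct comparisons between doses, were named after their values were seen. Alternatives were spike-in, array median and quantile scaling, normexp (limma 3.58.1 in R 4.3.3, offset 50, on median signal and median background, since the mean signal was not among the columns used), other filters on dim or outlier spots, the mean of a gene's probes, and the deposited table. Other steps ran in Python 3.11.15 with numpy 2.4.6 and pandas 2.3.3, and were tested on simulated data. With 1 array a dose, the number of arrays limits the precision and no test across cultures was possible.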

Additional observations from a re-analysis of the deposited data

Results flagged for a closer look

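A signal outside the genes differed between the arrays. The 8 spike-in probes well above background on all arrays were brighter at 0.009% than in the control before any scaling, by a mean log2 difference of 0.61, with single probes between 0.41 and 0.70. The brightest of them had a signal of 122651 in the control, 132795 at 0.003%, 151117 at 0.006% and 162515 at 0.009%. The 75th percentile of the genes' spots had the opposite order, at 180, 168, 158 and 121.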

How the results depend on the processing

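The count of features at least 2-fold higher, 3538, was 513 with spike-in scaling, 1288 with array median scaling, 2132 with quantile normalization, 906 with normexp, 2137 where both arrays had to be above background, 8525 without a filter and 1290 in the deposited table. The count of lower features, 1588, was 10914 with spike-in scaling, 4845 with array median scaling, 762 with normexp and 4846 in the deposited table. Spike-in scaling lowered the median of all features by construction, a shift of -1.23, and array median scaling gave -0.56. With spike-in scaling the AP-1 and ATF median was -0.024, and the difference was -0.0035 for Adora2b, -0.030 for Casp4, -0.12 for Celf1, -0.033 for Clk4, -0.086 for Gabarapl1, -0.18 for Hsp90b1, -0.095 for Msmo1, -0.0087 for Mt1, -0.15 for Psmd12, -0.15 for Pttg1, -0.16 for Rpl35a, -0.055 for Rps15a, -0.18 for Snai1, -0.12 for Srsf5, -0.033 for Tbxa2r and -0.055 for Tra2b. Scd was at 0.12 with normexp and Shank2 at 1.07 without a filter, and the cause was not tested.

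Of 159 measured genes named by the rule and at least 2-fold from the control, 143 kept their sign and 99 also the 2-fold size with spike-in scaling, and 122, 144 and 117 kept the size with array median scaling, quantile normalization and normexp. Of 43 bounds, 29, 35, 35 and 16 did so, and 2 were left where both arrays had to be above background. Of 205 genes with a measured probe past 2-fold and at least 1 further measured probe, 181 had probes of 1 sign and 24 of opposite signs. No paired analysis was possible because each dose has 1 array, and for the same reason no replicate was left out. The slide as a block was not run, since all 4 arrays lie on 1 slide.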
